A study of Mus musculus with 10 samples.

Results

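Immediate early genes are switched on within minutes of a growth factor, stress or DNA-damaging stimulus, from factors that are already in the cell and without new protein synthesis. Kinase cascades phosphorylate factors such as SRF with its ELK partners and CREB at their promoters, and the transcripts are short-lived. In lung they mark epithelial, endothelial and immune cells that have lately been stimulated, and they are also known to rise while a tissue is taken apart into single cells. The set described here has 10 members, taken by gene symbol from the 45786 genes of the tables: Fos, Fosb, Jun, Junb, Egr1, Atf3, Ier2, Dusp1, Nr4a1 and Zfp36. All 10 were found in both tables, and all 10 passed the filter on low counts.

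RNA was sequenced from whole lung cell suspensions of C57BL/6J mice, an inbred strain for which the labels name no engineered allele. Irradiated mice had received 12.5 Gy of γ-rays to the thorax, and age-matched controls 0 Gy. A single irradiated and a single control pool were made at 24 hours and at 1, 4, 12 and 32 weeks, each from RNA of 3 mice, so the 5 times are the only replicates of a group and differ in age as well. The labels used here give neither the age of the mice at treatment nor the way the suspensions were made.

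Deposited library totals lay between 9983710 and 13509769 estimated fragments. Before the authors' scaling the 12-week control was the smallest library with 8677922 fragments, and the 4-week irradiated pool the largest with 17465209. Markers of lung cells were present: no gene of 17 lists of cell type markers was at 0 in any pool, including the 5 surfactant and lamellar body genes of alveolar type 2 cells (Sftpc, Sftpb, Sftpa1, Abca3, Lamp3). In bulk RNA of this kind, fewer cells of a type and less RNA per cell cannot be told apart.

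The promoters of Fos, Dusp1 and Zfp36 are shown, because they carry the letters through which CREB-type factors and SRF are known to act; they were picked after the motif matches of all the promoters had been seen. Sequences are the 250 bases before the transcription start in RefSeq on GRCm38.p6, 5′ to 3′ on the gene's strand. In GENCODE M21, used here for gene symbols and exonic bases, 2 of these genes start further upstream. There the Zfp36 window lies within the 3470 exonic bases of its gene (chr7:28376784-28380253). The Dusp1 window lies within the span of its gene (chr17:26505590-26562128). A promoter was found for 8 of the 10 genes and for 27025 genes in all; Egr1 and Ier2 had no entry. Capitals mark TGACG, TGACGTCA or TATAAA on the strand shown and, in Zfp36, the CArG box that SRF binds.
Fos promoter, chr12:85473640-85473889, plus strand: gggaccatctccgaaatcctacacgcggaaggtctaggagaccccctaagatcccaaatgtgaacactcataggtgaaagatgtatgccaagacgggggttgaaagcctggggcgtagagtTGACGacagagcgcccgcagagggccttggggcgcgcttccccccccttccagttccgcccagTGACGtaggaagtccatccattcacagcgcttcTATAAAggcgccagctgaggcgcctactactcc
Dusp1 promoter, chr17:26508473-26508722, minus strand: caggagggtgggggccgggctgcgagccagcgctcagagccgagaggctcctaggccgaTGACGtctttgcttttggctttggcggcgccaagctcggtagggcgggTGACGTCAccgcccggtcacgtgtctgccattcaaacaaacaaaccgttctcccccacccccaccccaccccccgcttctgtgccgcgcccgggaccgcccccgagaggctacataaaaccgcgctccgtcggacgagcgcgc
Zfp36 promoter, chr7:28379229-28379478, minus strand: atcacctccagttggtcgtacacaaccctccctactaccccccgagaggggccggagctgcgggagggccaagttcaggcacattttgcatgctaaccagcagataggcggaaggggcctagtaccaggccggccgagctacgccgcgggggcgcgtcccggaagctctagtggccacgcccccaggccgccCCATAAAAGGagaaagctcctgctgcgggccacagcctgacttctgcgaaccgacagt

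In the Fos promoter TGACG began 129 and 66 bases before the start and TATAAA 33 bases before it. The full palindrome TGACGTCA, which contains TGACG, began 143 bases before the start of Dusp1. The CArG box of Zfp36 began 58 bases before its start. With both strands searched, TGACG was in 6 of the 8 promoters (Fos, Fosb, Junb, Atf3, Dusp1 and Nr4a1) and in 17.9% of all promoters of this length. TGACGTCA was in 1 of the 8 and in 1.62% of all, the CArG box in 1 of the 8 and in 1.40% of all, and TATAAA in 1 of the 8 and in 13.0% of all. The AP-1 letters TGANTCA were in none of the 8 and in 6.87% of all, and the GC box GGGCGG was in 7 of the 8 and in 32.9% of all. A match in letters describes this window only.

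Levels between genes can be compared only per length, as FPKM (fragments scaled by gene length and library size). In the 5 control pools Fos stood highest with 157.8 FPKM ± 36.7 (SD, n = 5), followed by Dusp1 with 118.3 ± 19.4, Junb with 100 ± 25.7 and Ier2 with 83.0 ± 18.0. Zfp36 had 48.3 ± 8.28, Jun 34.5 ± 6.65, Nr4a1 30.4 ± 8.43 and Egr1 18.1 ± 5.91 FPKM. At the bottom were Atf3 with 6.72 ± 1.03 and Fosb with 0.546 ± 0.382 FPKM. Each neighbour in this order overlapped with the next over the control pools, except that Egr1 lay wholly above Atf3 and Atf3 wholly above Fosb. Unirradiated suspensions thus carried 8 of the 10 transcripts at 11.6 FPKM or more in every control pool.

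No member passed the test for irradiation over the 5 times, at any single time, or for a trend with time. Over the 5 times, with time as a block, 0 of 10 had an adjusted p under 0.05 (edgeR's quasi-likelihood test, Benjamini-Hochberg over 15625 genes), against 0% of all genes. Without adjustment 1 of 10 had a p under 0.05, against 11.1% of all genes. The error in this test is how the difference varied between the times, so a difference that changes with time also enlarges it. With DESeq2, which called 251 genes, none of the 10 was called. The fitted difference was positive for 3 members and negative for 7, from -0.39 for Fosb to 0.37 for Atf3 on the log2 scale, with a median of -0.165 beside 0.015 for all genes tested. None of the 10 had irradiated and control pools that did not overlap in CPM (counts scaled to a common library size by TMM), where 1.17% of genes lay wholly higher and 1.46% wholly lower in irradiated pools. Intervals for the difference show what these pools can and cannot bound: the 95% interval for Ier2 ran from 0.746 to 1.06-fold and that for Junb from 0.801 to 1.16-fold, but that for Fosb from 0.374 to 1.57-fold.

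**Figure D1:**
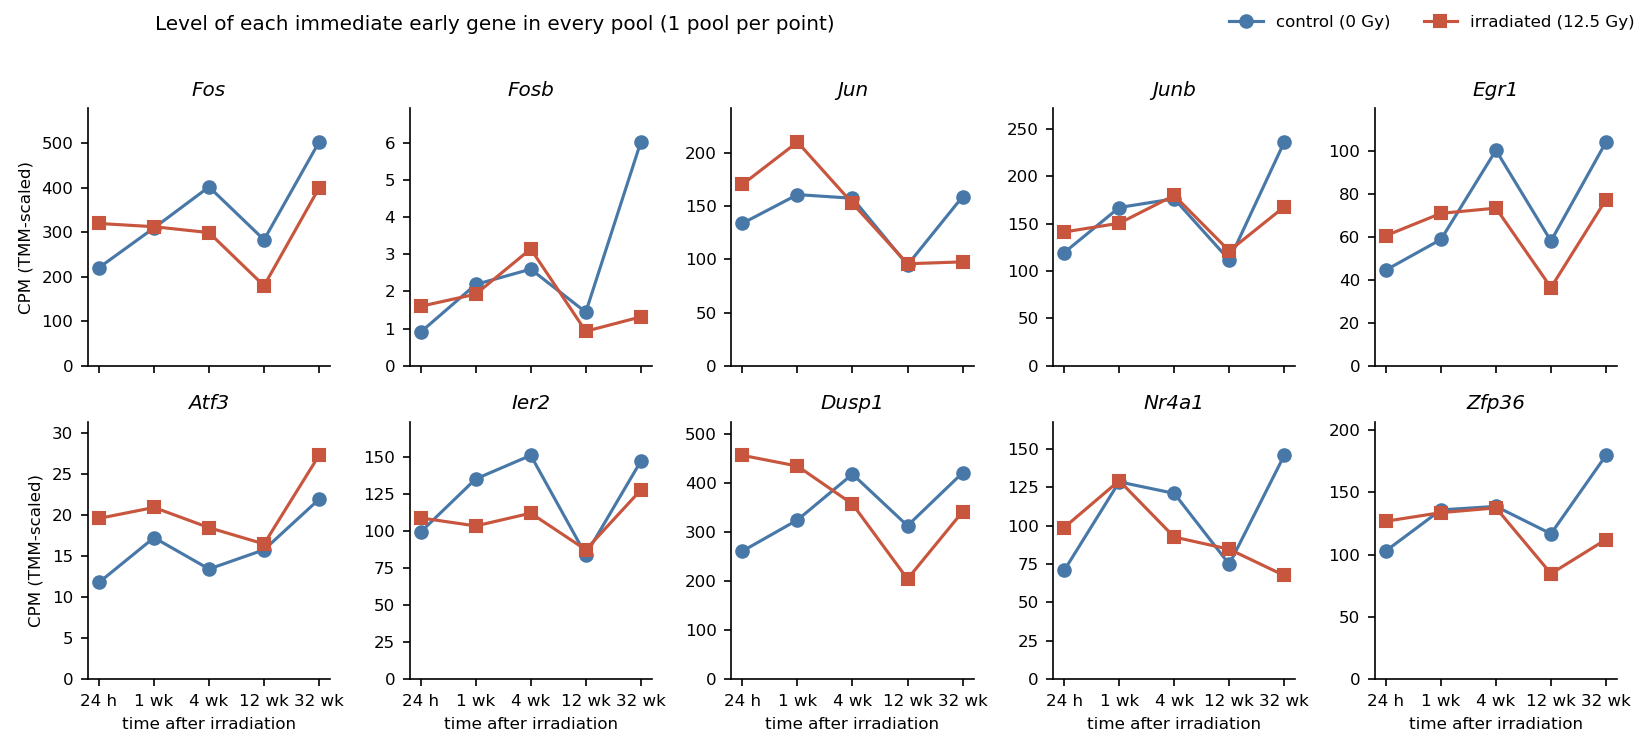
Level of each of the 10 genes in CPM (scaled by TMM, linear axis from 0) at 5 times after irradiation, 1 pool per point, with control pools as blue circles and irradiated pools as red squares. Control pools are lowest at 24 hours for 7 of the 10 genes and highest at 32 weeks for 8, and irradiated pools are lowest at 12 weeks for 9.

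Fos and Fosb encode the FOS partners of the AP-1 factor. In the control pools of 24 hours and 1, 4, 12 and 32 weeks, Fos had 220.5, 309.9, 402.1, 283.3 and 502.9 CPM. Irradiated pools of the same times had 319.9, 312.6, 299.4, 179.9 and 399.8 CPM. The irradiated pool was above its own control at 24 hours, level with it at 1 week and below it later, and the groups overlapped widely. Over the 5 times the difference was -0.17 ± 0.16 (log2, SE; edgeR adjusted p = 0.722). Fosb was scarce, at 11 to 65 estimated fragments per library after the authors' scaling, so its values carry a large counting error. Its control pools had 0.908, 2.19, 2.60, 1.44 and 6.02 CPM in the order of the times, and its irradiated pools 1.60, 1.93, 3.15, 0.930 and 1.32. The 32-week control stood far above the other control pools, and the difference over the 5 times was -0.39 ± 0.45 (log2, SE; edgeR adjusted p = 0.782) and 0.07 without the 32-week pair.

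Jun and Junb encode the JUN partners of AP-1. Control pools had 133.9, 160.9, 157.5, 94.8 and 158.9 CPM of Jun, and irradiated pools 170.5, 210.3, 152.7, 95.9 and 97.7 CPM. The irradiated pools of 24 hours and 1 week exceeded all 5 controls, and the irradiated pools of 12 and 32 weeks lay near the lowest control. Set against the 5 controls, the difference was 0.55 ± 0.26 (log2, SE) at 1 week with an edgeR adjusted p of 0.553 and -0.53 ± 0.28 at 32 weeks with 0.399. Junb had 119.3, 166.9, 176.1, 111.5 and 235.9 CPM in control pools and 141.1, 150.3, 179.6, 121.1 and 167.6 CPM in irradiated pools. All 5 irradiated values of Junb fell inside the control range. The library kit does not mark strand: Jun shares 232 of its 3189 exonic bases with the antisense gene Junos, and Junb shares 173 of 2301 with Prdx2. After the authors' scaling Prdx2 had 1754 to 2960 estimated fragments per library.

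Egr1 encodes a zinc-finger factor and Ier2 a nuclear protein of the same early response. Control pools had 44.6, 58.8, 100.3, 58.1 and 104.1 CPM of Egr1, and irradiated pools 60.6, 70.9, 73.4, 36.4 and 77.3. The 12-week irradiated pool was below all controls and the others were inside their range. Ier2 had 99.2, 135.0, 150.9, 83.8 and 146.9 CPM in control pools and 108.7, 103.3, 111.9, 87.2 and 127.5 in irradiated pools. Every irradiated value of Ier2 lay within the control range, and the irradiated pools were closer together than the controls. Nr4a1, an orphan nuclear receptor, had 70.8, 128.6, 121.1, 74.9 and 145.9 CPM in control pools and 98.8, 129.4, 92.6, 84.7 and 67.6 in irradiated pools. Its 32-week irradiated pool was below all 5 controls, at 0.464 times the control of the same time, while the difference from all 5 controls was -0.68 ± 0.39 (log2, SE; edgeR adjusted p = 0.436).

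Dusp1 encodes the phosphatase that switches MAP kinases off again, and Zfp36 encodes tristetraprolin, which binds and destabilises mRNAs of cytokines and of the early response. Dusp1 had 260.9, 324.4, 417.8, 312.6 and 420.4 CPM in control pools and 456.1, 434.2, 356.8, 204.1 and 341.1 in irradiated pools. Its irradiated pools were above all controls at 24 hours and 1 week and below all controls at 12 weeks. For Zfp36 the control pools had 103.0, 135.9, 138.7, 116.7 and 179.7 CPM and the irradiated pools 126.8, 133.7, 137.5, 84.7 and 112.1. At 12 weeks the irradiated pool of Zfp36 was below all controls. The differences over the 5 times were 0.01 ± 0.20 for Dusp1 and -0.18 ± 0.14 for Zfp36 (log2, SE; edgeR adjusted p = 0.989 and 0.688). Zfp36 shares 125 of 3470 exonic bases with Gm44710 on the other strand, and Dusp1 shares 11 of 3311 with Ergic1.

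Atf3 was the member least like the rest over all 10 pools. It encodes a stress-induced partner of the AP-1 and CREB families and lies at chr1:191170296-191218039 on the minus strand (GRCm38). Control pools had 11.8, 17.3, 13.4, 15.8 and 22.0 CPM, and irradiated pools had 19.6, 20.96, 18.5, 16.5 and 27.3 CPM. After the authors' scaling these were 143 to 237 estimated fragments in controls and 213 to 353 in irradiated pools. The irradiated pool was above the control of its own time in 5 of 5 pairs, as for 6.75% of all genes, while the groups overlapped in CPM. For the other 9 members 1 to 3 of the 5 pairs were higher. Its mean level was 16.1 ± 3.92 CPM over the controls (SD, n = 5) and 20.6 ± 4.11 CPM over the irradiated pools (SD, n = 5).

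The difference of Atf3 over the 5 times was 0.37 ± 0.15 (log2, SE), 1.29-fold with a 95% interval of 1.01 to 1.64. Its unadjusted p was 0.0402 and its edgeR adjusted p 0.424, which failed the correction, and the adjusted p lay between 0.301 and 0.717 over the alternatives. Without the 24-hour pair the difference was 0.28 (edgeR adjusted p = 0.668). At 32 weeks the irradiated pool of Atf3 was above all 5 controls, with a difference of 0.77 ± 0.32 (log2, SE; edgeR adjusted p = 0.274). In the authors' FPKM, irradiated pools had 10.3, 7.66, 9.34, 9.02 and 12.3 and control pools 4.93, 7.14, 6.81, 7.58 and 7.11, so that on this scale all irradiated pools lay above all controls, as 2.62% of genes did. With limma on log2(FPKM + 1) the difference was 0.47 (adjusted p = 0.301), where the median of all genes was also higher, at 0.11.

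Against the control of the same time, 1 pool against 1 pool and with no test, the direction of the set differed between the times. At 24 hours all 10 members were higher in the irradiated pool, by 1.10-fold for Ier2 up to 1.75-fold for Dusp1, with a median log2 difference of 0.46. Among all genes 7749 of 15625 were higher at that time, and their median was -0.004. At 1 week 6 of the 10 were higher, at 4 weeks 3 and at 12 weeks 5. At 32 weeks Atf3 was the only member that was higher and the other 9 were lower, down to 0.239-fold for Fosb, with a median of -0.461 beside 0.025 for all genes. A list of 37 other immediate early genes, of which 34 passed the filter on low counts, had the same directions at both ends. At 24 hours 30 were higher (median 0.392), not counting a gene whose difference rounded to 0. At 32 weeks 28 were lower (median -0.342), against the same single controls.

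The control pools themselves differed at those times. The 24-hour control was the lowest of the 5 controls for 7 of the 10 genes, and the 32-week control the highest for 8. These shares were not computed for all genes. The members go together over the controls (median r 0.83), so the counts are not independent. Set against all 5 controls, the 24-hour irradiated pool was higher for 3 members (Jun, Atf3 and Dusp1) and lower for 7. At 1 week 4 were higher and 6 lower, at 4 weeks 6 and 4, and at 32 weeks 5 and 5. The most one-sided was 12 weeks, with 1 higher (Atf3) and 9 lower, where 8179 of 15625 genes were lower. The median was -0.614 beside -0.025 for all genes. In the same pool 25 of 34 other immediate early genes (median -0.176) and 8 of 9 glucocorticoid-induced genes (median -0.72) were lower, but only 3 of 12 heat shock genes. Scaling and single controls moved some of these counts: at 24 hours 6 were higher with limma on FPKM and 5 without the 32-week control, and at 32 weeks 2 to 6 were higher over the alternatives, while at 12 weeks 0 or 1 was. The 10 of 10 at 24 hours and the 9 of 10 at 32 weeks are counts against a single control each. They did not recur against the whole control group. That group spans all 5 ages, and its slope over time was positive for 9 of 10 members. Setting a pool against controls of other ages thus cannot tell a deviating single control from a difference with age.

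**Figure D2:**
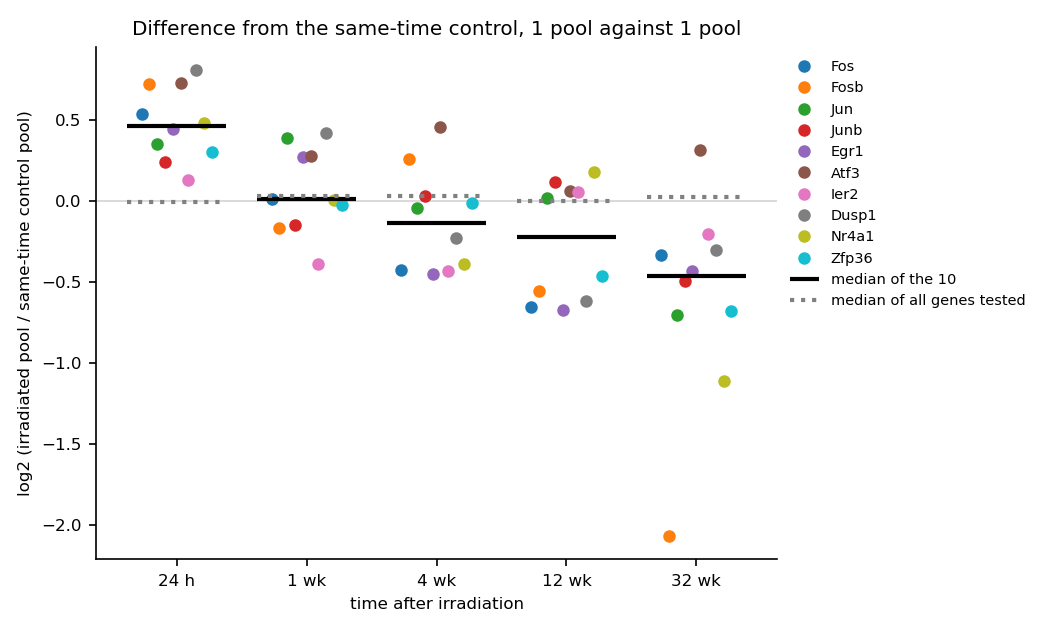
Log2 ratio of the irradiated pool to the control pool of the same time for each of the 10 genes (coloured points, 1 pool against 1 pool), with the median of the 10 (black line) and of all genes tested (grey dotted line) at 5 times. All 10 points are above 0 at 24 hours, and 9 of 10 are below 0 at 32 weeks.

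With the 5 controls as the error, 0 of 10 members passed at 24 hours (1.05% of all genes did), at 1 week (0.0128%), at 4 weeks (0.0512%), at 12 weeks (0%) and at 32 weeks (0.819%). These 5 comparisons share their controls and are not independent. At 24 hours 0 of 10 had an unadjusted p under 0.05 (12.0% of all genes), as at 1 week (9.52%) and 4 weeks (7.17%). Jun and Dusp1 lay above all 5 controls at both 24 hours and 1 week, 2 of 10 each time, where 22.1% and 22.6% of all genes did. The share of the set was near that of all genes. At 24 hours the difference was 0.27 ± 0.26 for Jun and 0.39 ± 0.25 for Dusp1 (log2, SE; edgeR adjusted p = 0.778 and 0.615).

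At 12 weeks the irradiated pool was the lowest irradiated pool for 9 of the 10 genes, a share not computed for all genes. Fos, Egr1, Dusp1 and Zfp36 were below all 5 controls, 4 of 10, where 21.5% of all genes were. The same 4 had an unadjusted p under 0.05, against 10.7% of all genes, and none passed after adjustment. For Dusp1 the difference was -0.77 ± 0.27, for Fos -0.93 ± 0.38, for Zfp36 -0.67 ± 0.27 and for Egr1 -1.01 ± 0.44 (log2, SE), with edgeR adjusted p from 0.378 to 0.458. Against the 12-week control alone, these 4 were at 0.628 to 0.726 times its level, while Jun, Junb, Atf3, Ier2 and Nr4a1 were at 1.01 to 1.13 times.

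Cell type markers also differed in these pools. At 12 weeks all 5 alveolar type 2 markers were below all controls, as 21.5% of all genes were. Their summed level was 6788 CPM against 22380 to 39740 CPM in controls. Markers of monocytes and interstitial macrophages were above all controls for 5 of 6 (1162 against 665.1 to 975.6 CPM). The 12 heat shock genes, which mark no cell type, summed to 5671 CPM in that pool, with 8 above all controls (2955 to 4131 CPM in controls). The share of all genes above all controls was not computed at 12 weeks. At 24 hours, 1 week and 32 weeks it was 22.1%, 22.6% and 25.5%. At 24 hours the neutrophil markers summed to 1027 CPM (496.4 to 771.7 in controls) and the B cell markers to 444.7 CPM (915.0 to 1425). None of these genes was at 0 in any pool, and their part in the values of the 10 members was not tested.

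At 32 weeks 1 of 10 members had an unadjusted p under 0.05 (Atf3), against 16.3% of all genes. Atf3 was above and Nr4a1 below all 5 controls, 1 of 10 in each direction, where 25.5% and 23.3% of all genes were. The difference was 0.22 ± 0.36 for Fos, 0.08 ± 0.41 for Egr1, 0.05 ± 0.30 for Ier2 and -0.02 ± 0.26 for Dusp1 (log2, SE), each smaller than its SE. In this irradiated pool the alveolar type 2 markers summed to 7985 CPM and the fibroblast markers to 485.5 CPM (1275 to 1974 in controls), and all 4 mast cell markers were above all controls (187.6 against 18.3 to 33.8 CPM). The 32-week control, the highest control for 8 of the 10 genes, had the lowest summed level of red cell markers, 7518 CPM where controls reached 68800. Whether these shifts bear on the 10 genes was not tested.

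A trend of the difference with time was tested through the interaction of treatment with log2 days. The estimate was negative for 10 of 10 members, and for 7412 of 15625 genes, and 0 of 10 passed (0% of all genes). The estimate for Ier2, -0.02 ± 0.06 per doubling of days (log2, SE), was 0.06 without the 24-hour pair and 0.0079 and 0.0080 with limma on FPKM at both pseudocounts; the other 9 were negative under each alternative. Dusp1 and Zfp36 had an unadjusted p under 0.05, 2 of 10 against 6.51% of all genes. For Dusp1 the difference dropped by 0.17 ± 0.06 per doubling of days (log2, SE; edgeR adjusted p = 0.727) and for Zfp36 by 0.12 ± 0.05 (0.763). Other gene lists leaned the same way, with a negative trend for 31 of 34 other immediate early genes and 13 of 15 other AP-1 and ATF family genes. So did 12 of 12 p53 targets (median -0.188, against -0.127 for the members) and 8 of 9 glucocorticoid-induced genes. For the mRNAs bound by tristetraprolin, with its paralogs, it was 8 of 9. Among upstream kinases and factors 14 of 21 were negative, and among heat shock genes 7 of 12. The trend uses both ends of the control series. In the controls alone, the slope over log2 days was positive for 9 of 10 members, all but Jun (7 to 10 over the alternatives), and 0 of 10 passed (0% of all genes). Fosb, Fos and Egr1 had an unadjusted p under 0.05 there, 3 of 10 against 4.31% of all genes, with slopes of 0.28 ± 0.11, 0.12 ± 0.05 and 0.14 ± 0.06 per doubling (log2, SE; edgeR adjusted p = 0.998 for each).

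The control pools, which were never irradiated, differed from each other more in these genes than in most genes of like level. The ratio of the highest to the lowest control was 6.63 for Fosb, 2.34 for Egr1, 2.28 for Fos, 2.12 for Junb and 2.06 for Nr4a1, and at the low end 1.61 for Dusp1. As SD of log2 CPM over the 5 controls, Egr1 had 0.54, Nr4a1 0.48 and Fos 0.46, where tested genes within 0.5 log2 units of the same mean level had medians of 0.19, 0.18 and 0.18. For 6 of the 10 genes (Fos, Jun, Junb, Egr1, Ier2 and Nr4a1) this SD exceeded that of 90% of the genes of like level, and the median percentile of the 10 was 93.5. Atf3 was at the 66.3 percentile, the lowest. In the irradiated pools 1 of 10, Jun, exceeded 90%, and the median percentile was 76.5. The SD was larger in controls than in irradiated pools for 8 of the 10 genes, with Jun (0.32 and 0.50) and Dusp1 (0.29 and 0.46) the other way round. On log2(FPKM + 0.1) it was larger in controls for 5 of 10, 3 of 10 exceeded 90% in controls and the median percentile there was 81.2. The 5 pools of a group differ in age, so this spread includes age.

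**Figure D3:**
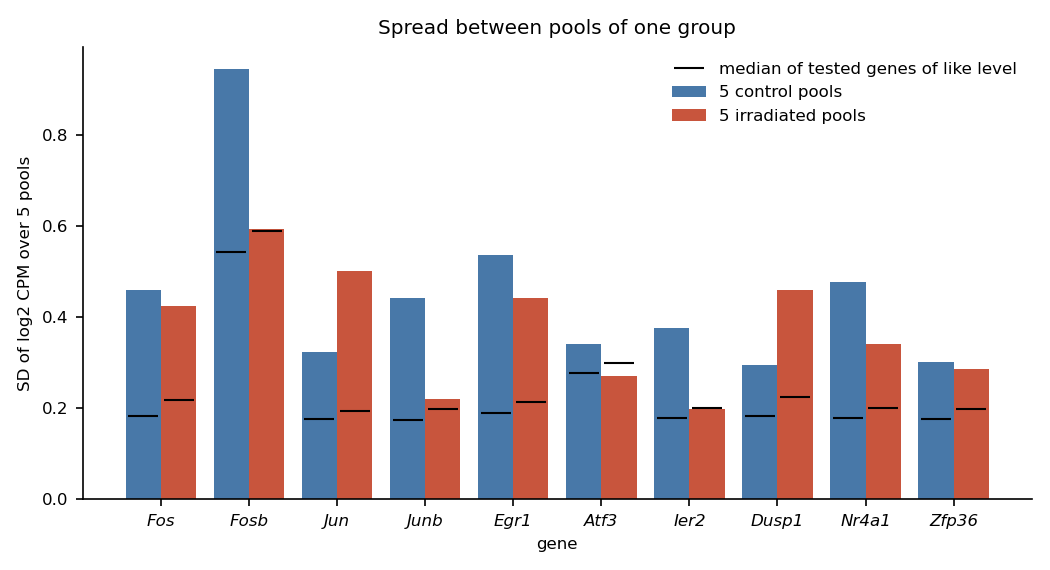
SD of log2 CPM over the 5 control pools (blue bars) and the 5 irradiated pools (red bars) for each of the 10 genes, with the median SD of tested genes within 0.5 log2 units of the same mean level as a black dash. In controls the bar is above the dash for each of the 10 genes, and the SD of Egr1 is 0.54 beside a median of 0.19.

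Pools that were high in one of these genes were mostly high in the others. Over the 10 pools Pearson's r of log2 CPM was above 0 for 45 of 45 pairs of genes, with a median of 0.66, from 0.03 for Jun with Atf3 to 0.95 for Fos with Egr1. The pools share age and treatment, so these are descriptions without a test. For pairs of other genes r was not computed, so whether this likeness is particular to the set is not known. Over the 5 controls the median was 0.83, and over the 5 irradiated pools it was 0.60 with 39 of 45 pairs above 0. The 6 pairs below 0 there all held Nr4a1 or Atf3, and Nr4a1 with Atf3 had the lowest r, -0.37. Differences between the irradiated and control pool of each time also went together, with a median r of 0.58 over the 5 times. Which member stood apart differed with the pools used: by the median r with the other 9 it was Jun in controls (0.55), Nr4a1 in irradiated pools (0.07) and Ier2 for the differences between same-time pools (0.14).

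Zfp36 was most like the rest of the set, with r = 0.95 over the 10 pools with the mean of the other 9, followed by Junb (0.90) and Egr1 (0.88). Jun (0.58) and Atf3 (0.36) were least like it. The mean of the 10 genes, each centred on its own mean, was -0.43, 0.10, 0.25, -0.29 and 0.58 log2 units in the controls of 24 hours and 1, 4, 12 and 32 weeks. In the irradiated pools it was 0.04, 0.17, 0.13, -0.54 and -0.02. The 32-week and 24-hour controls, both unirradiated, were thus the highest and the second lowest of the 10 pools, and the 12-week irradiated pool was the lowest. Among 12181 genes outside the lists used here, those most like this mean over the 10 pools were Akap8 (r = 0.92), Rrnad1 (0.91), Rfx1 (0.88), Micall1 (0.87), Gtf2ird1 (0.87) and Vars2 (0.87).

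**Figure D4:**
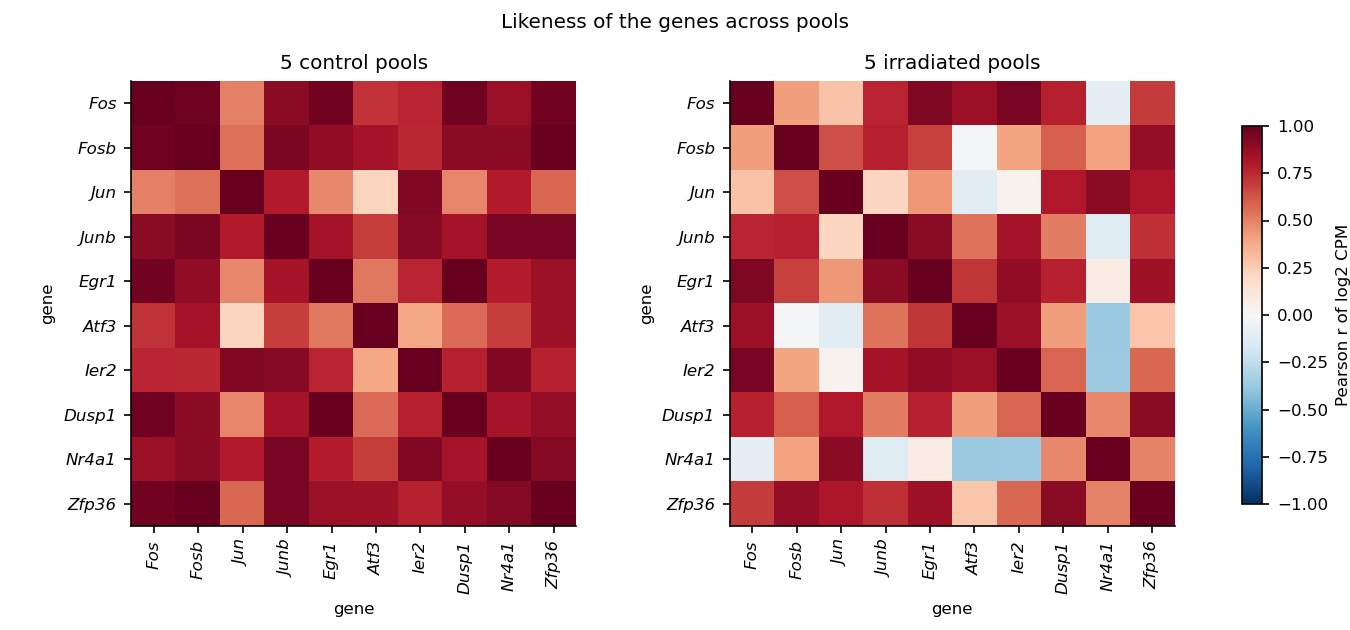
Pearson's r of log2 CPM for each pair of the 10 genes over the 5 control pools (left) and the 5 irradiated pools (right), on a colour scale from -1 (blue) to 1 (red). In controls all 45 pairs are above 0 (median 0.83), and in irradiated pools the pale and blue cells lie mainly in the rows of Nr4a1, Atf3 and Jun (median 0.60).

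Other genes of the same circuits gave few calls. Of 37 other immediate early genes 34 could be tested, and 0 passed over the 5 times and 0 at 24 hours. Ptgs2, the inducible cyclooxygenase, had a difference of 0.81 ± 0.26 over the 5 times (log2, SE; edgeR adjusted p = 0.326) and Dusp2, a phosphatase, -0.42 ± 0.19 (0.463). At 24 hours Plk2, a kinase that is also a p53 target, had 1.05 ± 0.21 (adjusted p = 0.0533) and Dusp2 -0.70 ± 0.30 (0.386). At 32 weeks Sgk1, a kinase induced by serum and glucocorticoids, rose by 1.03 ± 0.15 (log2, SE; edgeR adjusted p = 0.022), 1 of 34 where 0.576% of all genes rose. That adjusted p was 0.0557 without the 24-hour control and 0.0786 without the 1-week control, and 0.0575 with limma on log2(FPKM + 0.1).

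The other AP-1 and ATF family genes (15 of 16 tested) and the upstream kinases and factors (21 of 21 tested) gave 0 calls in the test over the 5 times and at each of the 5 times. In the first of these lists Atf4 had a difference of -0.28 ± 0.11 and Batf2 of 0.28 ± 0.39 over the 5 times (log2, SE; edgeR adjusted p = 0.405 and 0.821), and at 24 hours Batf2 had 1.07 ± 0.65 and Atf5 -1.08 ± 0.85. Among the upstream genes Mapk3, which encodes ERK1, had -0.15 ± 0.10 over the 5 times (log2, SE; edgeR adjusted p = 0.607). At 24 hours Elk1 had 0.60 ± 0.37 and Creb1 -0.58 ± 0.32. The 12 heat shock genes likewise gave 0 calls, with Hsph1 at 0.77 ± 0.19 and Dnajb1 at -0.02 ± 0.20 over the 5 times (edgeR adjusted p = 0.234 and 0.980), and with Hspa1a at 1.22 ± 0.31 and Hsph1 at -0.29 ± 0.24 at 24 hours.

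Of the mRNAs that tristetraprolin is known to bind, with its paralogs, 9 of 12 were tested. Ccl2, the monocyte chemokine, rose at 24 hours by 2.71 ± 0.32 (log2, SE; edgeR adjusted p = 0.00529), the only call of the list at 24 hours, while Zfp36l1 had -0.23 ± 0.30. Over the 5 times 0 of 9 passed, and Zfp36l2 had -0.30 ± 0.17 (adjusted p = 0.553). Among 9 glucocorticoid-induced genes Errfi1, a feedback inhibitor of the EGF receptor, rose at 24 hours by 1.22 ± 0.22 (adjusted p = 0.035) and fell at 32 weeks by 1.79 ± 0.28 (0.0317), where 0.243% of all genes fell. Its call at 24 hours was lost without the 1-week control (0.0785) or the 12-week control (0.0692), with total count scaling (0.0537) and in limma on log2(FPKM + 1) and log2(FPKM + 0.1) (0.0629 and 0.0558), and that at 32 weeks without the 24-hour control (0.0527) or the 1-week control (0.0886). Tsc22d3 had, over the 5 times, -0.42 ± 0.14 and Sgk1 0.30 ± 0.20 (edgeR adjusted p = 0.337 and 0.618), and at 24 hours Fkbp5 had -0.13 ± 0.31. Sgk1 was the only gene of this list with a positive difference over the 5 times. The other 8 of 9 were negative (list median -0.415), as were 7427 of 15625 genes. At 24 hours 6 of the 9 were positive.

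The p53 targets show that the same test made calls in these pools. At 24 hours the SE (log2) was 0.16 for Phlda3 to 0.51 for Gdf15 among the targets named here. Among the members it was 0.25 for Dusp1 to 0.92 for Fosb. The 95% interval at 24 hours was 0.527 to 1.63-fold for Fos and 0.886 to 1.94-fold for Dusp1, so changes within such bounds are left undecided. At 24 hours 9 of 12 rose, where 0.608% of all genes did, against 0 of the 10 immediate early genes. The cell cycle inhibitor Cdkn1a rose by 3.00 ± 0.20 (log2, SE; edgeR adjusted p = 0.000164), Phlda3 by 2.19 ± 0.16, Ccng1 by 1.89 ± 0.18, Bax by 1.42 ± 0.17, Eda2r by 3.14 ± 0.45, Sesn2 by 1.93 ± 0.29, Gdf15 by 3.03 ± 0.51 and Mdm2 by 0.91 ± 0.17 (0.0357). Gdf15 was not called without the 1-week control (0.0779), nor Mdm2 without the 24-hour (0.0592), 1-week (0.0931), 4-week (0.0588) or 32-week control (0.054). At 1 week Cdkn1a (2.06 ± 0.20, adjusted p = 0.0256) and Phlda3 (1.50 ± 0.17, 0.0445) rose, the only genes called at that time (0.0128% of all genes). Both of these calls were lost without the 1-week control (0.123 and 0.168), the 4-week control (0.0604 and 0.0763) or the 32-week control (0.0783 for each), and that of Phlda3 also without the 12-week control (0.0514). At 32 weeks Phlda3 rose by 1.08 ± 0.18 (0.0333), a call lost without the 24-hour (0.0723), 1-week (0.0886) or 12-week control (0.0528). Total count scaling ended the calls of Gdf15 (0.0537) and Mdm2 (0.0659) at 24 hours, of Cdkn1a (0.0609) and Phlda3 (0.096) at 1 week and of Phlda3 at 32 weeks (0.0839). With limma on FPKM, at pseudocounts of 1 and 0.1, Mdm2 (0.0952 and 0.0931) and Phlda3 at 1 week (0.103 and 0.107) were not called. Gdf15 had, over the 5 times, 2.11 ± 0.35 (adjusted p = 0.150) and Btg2, a gene of both the p53 and the early response, -0.13 ± 0.13 (0.737), and at 24 hours Btg2 had -0.04 ± 0.22.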

How the data were processed

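RNA of 10 pools was measured, 5 irradiated and 5 control. Per the labels' protocols, RNA of 3 mice per pool was extracted with Qiagen RNeasy PLUS and libraries were made with Clontech ultralow and Illumina NexteraXT kits. The submitters' processing notes name the build GRCm38.p4 and the tools Cufflinks 2.0.2, Cuffdiff, STAR 2.4.2a and Trimmomatic 0.32. Values deposited by the authors were FPKM and expected counts, which estimate the fragments of each gene. Low expected counts were multiples of a step that differed by library (0.577 to 1.39; 78.4% to 80.2% of values, tolerance 0.05), so the deposited counts had been put on a common scale. Of the 45786 gene identifiers 45223 matched GENCODE M21, and the other 563 took at most 0.14% of a library's counts. Columns of no sample numbered 0.

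Expected counts were rounded and scaled by TMM (factors 0.933 to 1.09). Genes that passed filterByExpr (treatment as group, minimum count 10, all 10 pools) were tested in edgeR 4.0.16 (R 4.3.3) with its robust quasi-likelihood F test, 2-sided, and Benjamini-Hochberg adjustment over 15625 genes, threshold 0.05. The single filter on all pools replaced a filter within each comparison after both had been run, and no member was called with either. For the test over the 5 times, time was a block (4 residual degrees of freedom). At each time 1 irradiated pool was set against the 5 controls (4), which assumes that the lone pool varies like controls of other ages. The trend used treatment, log2 days and their product (6), and the slope in controls came from the same fit. SE is the estimate divided by the root of F, and 95% intervals use the degrees of freedom of the F test. Fold changes against the control of the same time (prior count 2) have no test. Nothing in the labels separates biological from technical spread, so p-values measure the spread between pools or, over the 5 times, between same-time differences. Counting error comes on top of it in values of few fragments, and the labels name no molecular identifiers. The labels name no batch. Tests were also run on simulated counts with the same dispersion for every gene and no effect of age. The planted changes were larger than those fitted for the members, so this run does not bound power or error for them.

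Alternatives were total count scaling, DESeq2 1.42.0, no filter on low counts, limma 3.58.1 on log2(FPKM + 1) and log2(FPKM + 0.1), counts divided by the step, no time block, 24 hours against the later times, and leaving out each control or pair. The members and gene lists were chosen with earlier results of these data known. Besides the members, the genes named are those with the smallest p in each direction over the 5 times and at 24 hours in each list, every list gene that passed at any time (at most the 8 with the smallest p), and the 6 genes most like the mean of the members (mean of at least 50 counts). The values of 1 gene that this rule names are not reported here.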

Additional observations from a re-analysis of the deposited data

How the results depend on the processing

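No member was called in the 80 main tests or in the 897 tests under alternatives that gave an adjusted p (DESeq2 gave none for Fosb in 3). The lowest was 0.125, for Jun at 32 weeks without the 12-week control (-0.64). The difference over the 5 times turned its sign, uncalled throughout, for 5 members. Jun (0.0037) had -0.00057 with DESeq2, -0.0592 with total count scaling, and from -0.0938 (without the 1-week pair) to 0.178 with 1 pair left out. It was also below 0 without the 24-hour (-0.084) or 12-week pair (-0.0059). Dusp1 had -0.0499 with total count scaling, and from -0.182 (without the 24-hour pair) to 0.167 with 1 pair left out, with -0.0897 without the 1-week pair. Junb had 0.0699 and 0.0708 with limma at pseudocounts of 1 and 0.1. With 1 pair left out Junb lay between -0.124 and 0.0603, Fosb between -0.664 and 0.0706, and Nr4a1 between -0.325 and 0.0695, each above 0 only without the 32-week pair. The cause was not tested. The median percentile of the SD over controls moved from 93.5 to 81.2 on log2(FPKM + 0.1), and the cause was not tested. Total count scaling moved the median of all genes to -0.14 at 24 hours and -0.11 at 32 weeks, and limma on FPKM to as much as 0.19 at 32 weeks.

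Of 397 values of 35 gene results under alternatives (members over the 5 times, members with an unadjusted p under 0.05 elsewhere and list genes that passed, a selection made after the values were seen), 350 kept direction and side of the threshold, 34 lost the call and 13 turned. Without the time block 0 genes were called over the 5 times, as with it, and Atf3 had 0.36 (adjusted p = 0.559). This block pairs each irradiated pool with its same-time control, and with 1 pool per time and treatment no further pairing was possible.

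Counts over all genes moved more. Over the 5 times 0 genes were called, and 251 with DESeq2 and 1 with no filter. At 24 hours the 164 became 540 with DESeq2, 250 with no filter, 101 with limma (pseudocount 1), 64 without the 1-week control and 107 without the 32-week control. At 32 weeks the 128 became 831, 336 and 381 in the same 3 alternatives, 65 with total count scaling, and 35, 8, 312 and 84 without the 24-hour, 1-week, 4-week and 12-week control. At 1 week the 2 became 240 with DESeq2, 24 with no filter, 12 without the 24-hour control and 0 with total count scaling, and also 0 without the control of 1 week, of 4 weeks or of 32 weeks. At 4 weeks the 8 became 88 with DESeq2, 31 with no filter, 16 and 17 with limma, 5 without the 1-week control and 14 without the 4-week control. At 12 weeks the 0 became 222 with DESeq2, 43 with no filter, 7 and 13 with limma, 1 without the 4-week control and 2 without the 12-week or the 32-week control. For the trend DESeq2 called 18 genes and the contrast of 24 hours with the later times 1, and for the slope in controls DESeq2 called 26. Fosb had 11 to 65 estimated fragments per library after the authors' scaling, so its counting error is larger than that of the other members.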
